A study of Mus musculus with 8 samples.

Results

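The loci described here are distal myogenin peaks that were called in differentiating myoblasts without bexarotene, were not called with bexarotene, and carried no called p300 peak in either condition. They number 1205 of the 5912 intervals in the control myogenin list (20.4%). The members were chosen by called peak positions alone. Of the 5912 control intervals, 2920 (49.4%) shared no base with an interval of the bexarotene myogenin list, and 1759 of these had a center more than 1 kb from every protein-coding transcription start site (TSS). Of the 1759, 554 overlapped a p300 interval of the control list only (256), of the bexarotene list only (39) or of both (259), and the remaining 1205 (68.5%) are the members. These shares follow from the rule and are given as a description.

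C2C12 cells are a mouse myoblast line of C3H origin that exits the cell cycle and fuses into myotubes in low serum. In both conditions the cells were moved to medium with horse serum and differentiated for 24 h. Control myoblasts (Ctl) received no bexarotene, and treated myoblasts (Bex) received 50 nM of this agonist selective for the retinoid X receptor (RXR) when differentiation began. Myogenin and the acetyltransferase p300 were each profiled by ChIP-seq with 1 library per condition, and the peak lists of these 4 samples, out of 8 in the series, were used. The lists give positions and no tag counts, so they show neither the sequencing depth nor the strength of a peak, and a peak that was not called is not shown to be unbound. Peak positions do not show expression, so the labelled cell type was not checked against marker genes.

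Myogenin is a basic helix-loop-helix factor that drives the terminal step of muscle differentiation. It pairs with E proteins and binds a short palindrome-like element called the E-box, and in muscle the preferred forms have a GC or a CC center. The related factor MyoD binds the same elements earlier, and p300 is a coactivator that acetylates histones at enhancers. In what follows an E-box is counted where the palindrome CAGCTG, with a GC center, lay wholly within 50 bp of the peak center. The form with a CC center was counted too, which reads CACCTG on one strand, and on the opposite strand the same site reads as CAGGTG.

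The first sequences are members beside genes of muscle regulation, signaling, contraction and the cell cycle, chosen among those that hold an E-box, which most members do not. The lines below give the central 100 bases of members in introns or between genes, read 5′ to 3′ on the plus strand of mm9, with each E-box in capitals. The gene is that of the nearest protein-coding TSS, and the coordinates are those of the bases printed. Distances to a gene are to the nearest such TSS, which can lie inside the gene.
Myod1 (chr7:53626625-53626724): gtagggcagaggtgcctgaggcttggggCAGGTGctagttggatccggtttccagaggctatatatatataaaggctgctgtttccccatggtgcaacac
Mef2d (chr3:87949892-87949991): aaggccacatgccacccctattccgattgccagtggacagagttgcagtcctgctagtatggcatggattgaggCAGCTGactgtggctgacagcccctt
Tead1 (chr7:119887368-119887467): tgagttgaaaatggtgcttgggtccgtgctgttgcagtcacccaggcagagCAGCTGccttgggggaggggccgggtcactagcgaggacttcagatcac
Notch1 (chr2:26397178-26397277): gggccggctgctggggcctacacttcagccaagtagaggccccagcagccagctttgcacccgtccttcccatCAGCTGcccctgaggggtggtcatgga
Notch1 (chr2:26398789-26398888): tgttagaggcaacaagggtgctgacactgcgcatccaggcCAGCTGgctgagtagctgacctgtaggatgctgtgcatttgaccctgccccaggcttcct
Rarb (chr14:17404726-17404825): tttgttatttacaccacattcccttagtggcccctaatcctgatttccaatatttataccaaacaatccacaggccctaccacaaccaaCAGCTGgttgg
Tnnc1 (chr14:32022624-32022723): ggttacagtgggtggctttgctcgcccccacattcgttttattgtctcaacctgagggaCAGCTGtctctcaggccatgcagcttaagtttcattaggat
Neb (chr2:52223372-52223471): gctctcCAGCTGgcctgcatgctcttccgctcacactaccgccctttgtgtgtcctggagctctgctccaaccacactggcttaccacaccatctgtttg
Kcnj12 (chr11:60876208-60876307): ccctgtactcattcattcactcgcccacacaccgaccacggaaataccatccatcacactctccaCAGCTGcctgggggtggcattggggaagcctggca
Rb1 (chr14:73713390-73713489): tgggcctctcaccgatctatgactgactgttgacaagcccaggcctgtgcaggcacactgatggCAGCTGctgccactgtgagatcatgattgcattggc

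The Myod1 site lay 5169 bp upstream of the gene for MyoD, and its single E-box had the CAGGTG form. The Mef2d site lay in the first intron, 3448 bp downstream of the TSS of this MADS-box partner of the myogenic factors, and 236 bp from a bexarotene myogenin peak. The Tead1 site, in the first intron of a TEA-domain factor that acts at muscle genes, lay 1859 bp downstream of a TSS inside the gene. The Notch1 pair lay 25045 and 26656 bp upstream of the gene for this receptor, which holds muscle progenitors undifferentiated.

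The next members are shown for their several E-boxes, since each had 3 or more in the central 100 bases.
Arhgap18 (chr10:26552808-26552907): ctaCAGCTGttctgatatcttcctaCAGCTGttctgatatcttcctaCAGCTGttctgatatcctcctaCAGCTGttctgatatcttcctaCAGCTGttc
Tmem38b (chr4:53999459-53999558): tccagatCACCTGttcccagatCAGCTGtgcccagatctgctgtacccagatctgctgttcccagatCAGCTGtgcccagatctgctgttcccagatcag
Col5a1 (chr2:27803610-27803709): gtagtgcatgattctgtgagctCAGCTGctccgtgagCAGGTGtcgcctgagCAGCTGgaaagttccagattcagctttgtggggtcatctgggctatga
Klhl21 (chr4:151385103-151385202): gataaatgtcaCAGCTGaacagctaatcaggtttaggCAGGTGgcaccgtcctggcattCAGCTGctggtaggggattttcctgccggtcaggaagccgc

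In the first intron of Arhgap18, 5 CAGCTG sites recurred at a constant spacing of 22 bp. In intron 4 of Col5a1, the gene of a fibrillar collagen chain, 3 sites lay 15 bp apart. The Tmem38b sites were 15 to 45 bp apart and the Klhl21 sites 22 to 26 bp apart. In the Arhgap18 and Tmem38b windows the sites lie in a short repeated unit, and how reads were placed there is not known from the lists.

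The last pair shows members with no E-box in this window. They are the longest member of all, 614 bp, upstream of Mtmr12, and the 490 bp member upstream of Spen.
Mtmr12 (chr15:12133563-12133662): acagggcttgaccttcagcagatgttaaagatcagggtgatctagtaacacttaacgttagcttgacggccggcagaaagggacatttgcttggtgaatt
Spen (chr4:141101397-141101496): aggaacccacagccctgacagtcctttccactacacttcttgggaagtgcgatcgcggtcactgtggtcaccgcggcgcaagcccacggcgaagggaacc

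An E-box was present at 419 of the 1205 members, or 34.8% (95% Wilson interval 32.1 to 37.5%). Here and below, intervals cover counting error only, because with 1 library per condition no variation between cultures was measured. The intervals count peaks, except for the bases next to the E-box, where they count sites. In windows of the same length centered 2 kb to either side and free of myogenin peaks, 12.5% (11.2 to 13.9%) held an E-box, so the members held it 2.78 times as often. The GC-centered form CAGCTG stood furthest above its surroundings, at 24.6% of the members against 4.86% of the flanking windows, a ratio of 5.07. The form CACCTG or CAGGTG was found at 13.9% against 7.96%, a ratio of 1.75. Among the other forms of CANNTG the ratio to the flanks was highest for CAACTG (8.71% against 5.59%, a ratio of 1.56), and CATATG (1.58% against 1.51%) and CACGTG (1.08% against 1.59%) were near or below their flanks.

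The members held fewer E-boxes than distal peaks shared by both conditions or unique to bexarotene. The share was 74.4% at the 1289 shared distal control peaks without p300 (members minus shared -39.6 percentage points, 95% Newcombe interval -43.1 to -36.0). It was 58.6% at the 2036 distal peaks without p300 that were unique to bexarotene (difference -23.9, -27.3 to -20.4). At the 554 distal peaks unique to control that carried p300 it was 34.5%, and the difference of 0.295 points had an interval of -4.54 to 5.01. That last comparison depended on the settings and has no stable sign. Over the whole interval 48.8% of the members and 56.0% of the p300 peaks held an E-box (difference -7.16, -12.1 to -2.13), and counting any CANNTG within 50 bp gave -6.34 (-11.2 to -1.40). Where p300 within 1 kb, in place of overlap, divided the peaks, the difference was 7.65 (3.20 to 12). Over all 5912 control intervals the share within 50 bp was 47.7%.

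**Figure D1:**
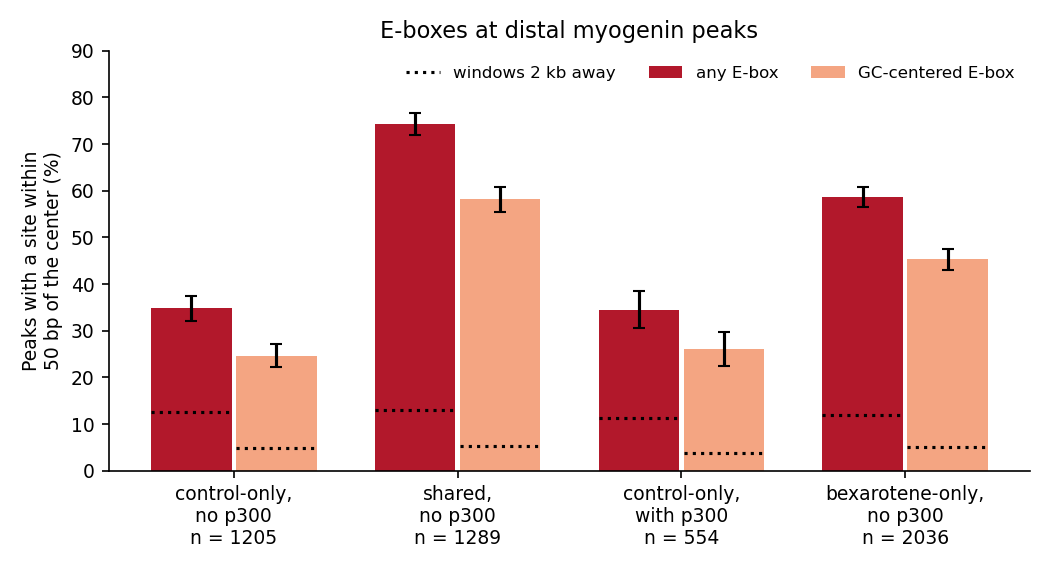
Bars give the share of peaks (%) with any E-box (dark) and with the GC-centered form (light) within 50 bp of the center in 4 sets of distal myogenin peaks, with 95% Wilson intervals, and dotted lines give the share in windows 2 kb away. The control-only peaks without p300 (34.8%) stand beside the control-only peaks with p300 (34.5%) and below the shared (74.4%) and bexarotene-only sets (58.6%).

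The E-boxes of the members were denser near the peak center than farther out. Within 20 bp of the center there were 0.461 sites per 100 bp, against 0.147 at 200 to 400 bp, a ratio of 3.14. The ratio was 7.67 at shared peaks, 6.59 at peaks unique to bexarotene and 3.27 at peaks unique to control with p300. The density at 200 to 400 bp was similar in all sets (0.127 to 0.159). The ratio therefore mostly reflects how many sites lay near the center, not how tightly they gathered. At the members the density was also 0.461 at 20 to 40 bp and was 0.417 at 40 to 60 bp. Where a member held an E-box within 50 bp, the nearest one lay a median of 20 bp from the center, against 17 bp in the shared and bexarotene-only sets and 23 bp beside p300.

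**Figure D2:**
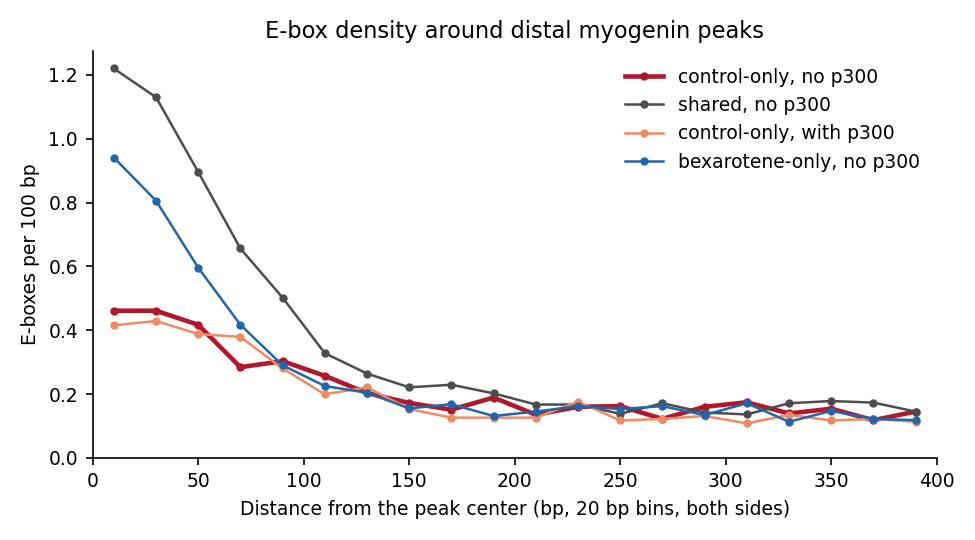
Lines give the number of E-boxes per 100 bp against distance from the peak center (bp) in 20 bp bins on both sides. The members begin at 0.461, the shared peaks at 1.22, the bexarotene-only peaks at 0.941 and the control-only peaks with p300 at 0.415, and the lines lie together beyond 200 bp.

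Multiple E-boxes were less frequent at the members than at shared peaks and more frequent than at peaks with p300. Of the 419 members with an E-box, 317 had 1, 91 had 2 and 11 had 3 or more. Those with at least 2 made up 24.3% (20.5 to 28.7%), compared with 38.1% (35.0 to 41.2%) at shared peaks, 31.3% (28.8 to 34.0%) at peaks unique to bexarotene and 13.1% (9.03 to 18.6%) at peaks unique to control with p300.

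The bases next to the E-box were examined because myogenic factors are known to favor particular neighbors. Each site was scored for a pair of pyrimidines directly after it, on either strand for CAGCTG and on the strand reading CACCTG for the other form. At the members 80.6% of the CAGCTG sites had the pair (76.1 to 84.5%, 346 sites), against 49.6% in the flanking windows. This share did not separate from that at shared peaks (83.4%, difference -2.73, -7.74 to 1.82). Of the CACCTG or CAGGTG sites at the members, 62.0% had the pair (54.7 to 68.8%, 179 sites) against 31.3% in the flanks. Here the members lay below the shared peaks (79.6%, difference -17.6, -25.7 to -9.63) and below the bexarotene-only peaks (74.3%, difference -12.3, -20.5 to -4.34). They did not separate from the peaks with p300 (54.4%, difference 7.63, -6.62 to 22.1).

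Other consensus sequences were counted within 100 bp of the center on both strands. The AP-1 element, bound by Jun and Fos proteins, was searched as TGACTCA or TGAGTCA. It occurred at 7.39% of the members (6.04 to 9.0%) and at 3.44% of their flanking windows. At the peaks unique to control with p300 it occurred at 19.0%, 11.6 points more often (members minus p300 set -11.6, -15.3 to -8.12), while the shared peaks had 8.22% (difference -0.838, -2.95 to 1.29) and the bexarotene-only peaks 9.72% (difference -2.34, -4.25 to -0.319).

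The Runx element TGTGGT was found at 21.2% of the members and 13.1% of their flanks. It was more frequent in each of the other sets, at 31.0% of shared peaks (difference -9.79, -13.2 to -6.35), 32.3% of p300 peaks (difference -11.1, -15.6 to -6.60) and 25.9% of bexarotene-only peaks (difference -4.69, -7.64 to -1.65). The Tead element GGAATG was found at 15.4% of the members, against 10.6% in the flanks and 18.7% at shared peaks (difference -3.34, -6.28 to -0.388). It was found at 18.4% of peaks with p300 (difference -3.06, -7.00 to 0.634) and 17.4% of bexarotene-only peaks (difference -2.03, -4.61 to 0.633), and neither difference separated from 0.

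The nuclear receptor half-site AGGTCA, an element used by RXR and its partners, was found at 14.8% of the members and 11.9% of their flanks. Its share was 13.7% at shared peaks, 11.4% at peaks with p300 and 15.8% at peaks unique to bexarotene, and each difference from the members had an interval that included 0. A direct repeat of this half-site with a single base between the copies was found at 1 member. Some consensus sequences were no more frequent at the members than around them. The Sp element GGGCGG stood at 6.56% against 6.88%, CCAAT of NF-Y at 21.7% against 23.5%, TGACG of the cAMP response element at 7.39% against 8.0% and the Gata element GATAAG at 4.98% against 5.16%. The Mef2 consensus was found at 2.82% of the members and 3.48% of their flanks. Over all control intervals the shares were 10.4% for AP-1, 25.6% for Runx, 16.7% for Tead, 12.6% for the half-site, 10.9% for Sp and 3.04% for Mef2.

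**Figure D3:**
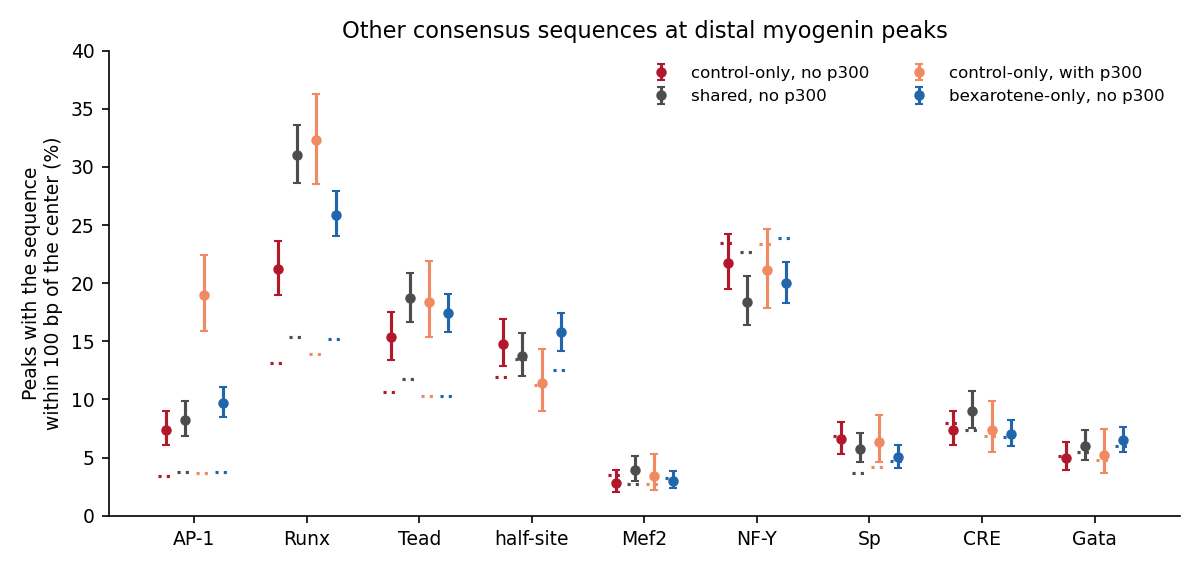
Points give the share of peaks (%) with each consensus sequence within 100 bp of the center in the 4 sets, with 95% Wilson intervals, and dotted marks give the share in their flanking windows. AP-1 is at 7.39% of the control-only peaks without p300 and 19.0% of those with p300, and Runx is lowest in the former, at 21.2%.

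The members lay closer to a TSS than the other distal sets, although all were held to the same minimum of 1 kb. Their median distance to the nearest protein-coding TSS was 10580 bp (quartiles 2508 and 41276 bp), against 20036 bp at shared peaks, 27438 bp at peaks with p300 and 17432 bp at peaks unique to bexarotene. Between 1 and 5 kb from a TSS lay 36.4% of the members, 17.0% of the shared peaks (difference 19.4 points, 16.0 to 22.8), 15.7% of the p300 peaks (20.7, 16.5 to 24.7) and 22.8% of the bexarotene-only peaks (13.6, 10.3 to 16.9). At the edge of the rule, the nearest members lay 1002 bp from the TSS of Atp5b and 1007 bp from that of Ctdsp2, and peaks 1000 bp from Sdc1 and 997 bp from Pknox1 were left out. A start site of any transcript, noncoding ones included, lay within 1 kb of 93 members (7.72%).

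The E-box share was lowest in the members nearest to a TSS. It was 24.8% (21.0 to 29.1%) at the 439 members between 1 and 5 kb, 35.7% between 5 and 10 kb, 43.5% (38.3 to 48.9%) between 10 and 50 kb and 39.5% (33.9 to 45.4%) beyond 50 kb. The nearest bin was 14.7 points below the farthest (-21.7 to -7.65). The same difference was -19.6 points (-25.7 to -13.4) at peaks unique to bexarotene, -7.78 (-15.6 to -0.131) at shared peaks and 1.44 (-9.59 to 13.4) at peaks with p300. In every one of the 4 bins the share at the members was below that at the shared and at the bexarotene-only peaks.

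**Figure D4:**
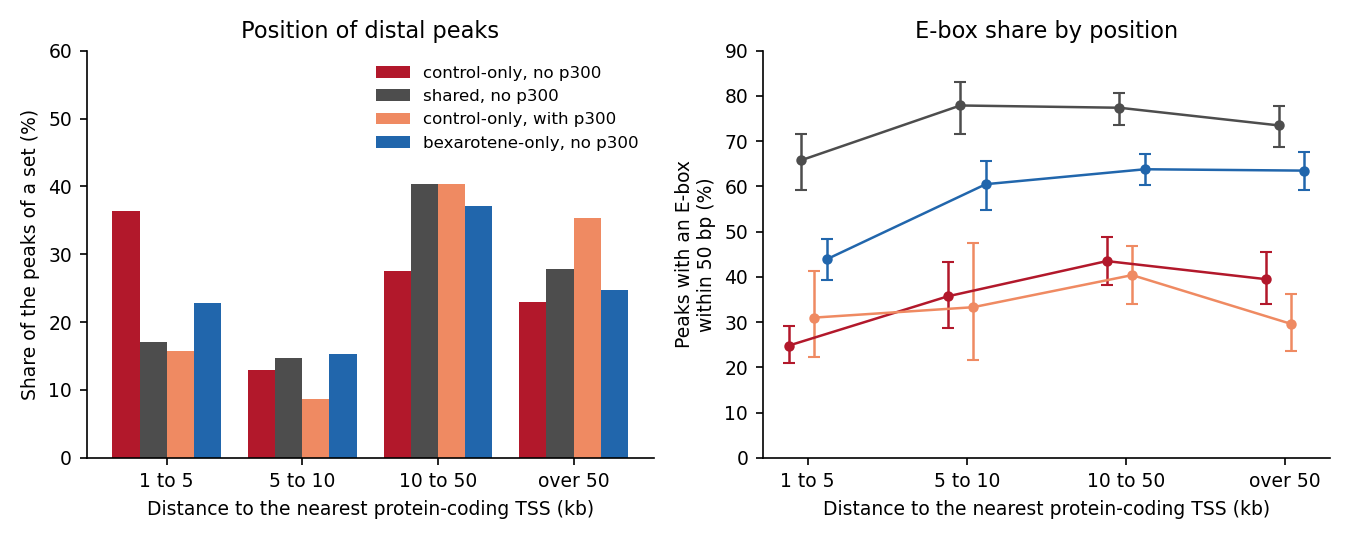
The left panel gives the share of each set (%) by distance to the nearest protein-coding TSS (kb), and the right panel the share of peaks with an E-box within 50 bp (%) in the same bins, with 95% Wilson intervals. The members have 36.4% of their peaks between 1 and 5 kb, where 24.8% of them hold an E-box.

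Inside protein-coding genes lay 633 members (52.5%, 49.7 to 55.3%), beside 54.5% of shared peaks (difference -1.93, -5.84 to 1.98), 54.4% of bexarotene-only peaks (difference -1.89, -5.44 to 1.66), 46.0% of peaks with p300 (difference 6.5, 1.47 to 11.5) and 55.2% of all control intervals. Of the 633, 552 had their center in an intron and 81 in an exon. The first intron held 267 members (22.2%), compared with 20.9% of the shared peaks (difference 1.21, -2.01 to 4.45) and 12.8% of the peaks with p300 (difference 9.34, 5.56 to 12.9). Exons held 6.72% of the members, above 3.57% of shared peaks (difference 3.15, 1.43 to 4.94) and 1.99% of peaks with p300 (difference 4.74, 2.74 to 6.52). Over all control intervals, those near a TSS included, exons held 9.64% and the first intron 22.3%. Of the exonic members 42.0% (31.8 to 52.8%) had an E-box, of the intronic ones 36.6% and of those outside genes 32.0%. The difference between intronic members and those outside genes was 4.60 points, with an interval that included 0 (-0.946 to 10.1). CpG-rich members, with over 55% GC and a CpG ratio over 0.6 in the central 200 bp, numbered 54 (4.48%), and 11 of them (20.4%) had an E-box. CpG-rich peaks made up 0.388% of shared peaks (difference 4.09, 2.94 to 5.43), 1.42% of bexarotene-only peaks (difference 3.06, 1.86 to 4.45), 2.53% of peaks with p300 (difference 1.95, -0.00790 to 3.62) and 11.2% of all control intervals.

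Most members were called at the smallest interval length of the control list, 172 bp. This held for 964 of them (80.0%, 77.6 to 82.2%), against 39.5% of shared peaks (difference 40.5, 36.9 to 43.9) and 71.7% of peaks with p300 (difference 8.34, 4.04 to 12.8). A longer interval meets an overlap of 1 bp more readily, so the rule itself favors short members and longer shared or p300 peaks. How much of these differences follows from the rule was not tested. The bexarotene list has a smallest length of 168 bp, which 73.3% of its unique distal peaks had. The 241 longer members had a median length of 230 bp, 37 exceeded 300 bp, and 38.6% (32.7 to 44.9%) of the longer ones held an E-box against 33.8% (30.9 to 36.9%) of the smallest. The 6 longest lay near Mtmr12 (614 bp), Mknk2 (516 bp), Gpbp1 (515 bp), Col11a2 (501 bp), Spen (490 bp) and Ulk1 (487 bp), and of these the Mknk2 and Gpbp1 peaks had an E-box within 50 bp.

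Although the rule bars overlap, 278 members (23.1%) had a p300 peak of either list within 1 kb, more often than shared peaks (9.85%, difference 13.2, 10.3 to 16.1) and peaks unique to bexarotene (14.8%, difference 8.29, 5.49 to 11.2). The control p300 list supplied a peak within 1 kb for 20.3% of the members and the shorter bexarotene list for 11.7%. The control list holds 22051 p300 intervals and the bexarotene list 9154. The smallest gap was 1 bp, near Wdr81, and the median was 7278 bp. Members within 1 kb of p300 held an E-box in 23.0% (18.5 to 28.3%), against 38.3% (35.2 to 41.5%) of the others, a difference of -15.3 points (-20.8 to -9.15). The shared peaks showed a difference of -15.3 points as well (-24.3 to -6.88), from 60.6% to 76.0%.

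A bexarotene myogenin peak lay within 1 kb of 158 members (13.1%, 11.3 to 15.1%) and within 200 bp of 49 (4.07%), so these were not far from myogenin sites called under treatment. The mirror share, for peaks unique to bexarotene and the control list, was 8.25% within 1 kb. Both sets were chosen for not overlapping the other list, and the lists differ in length, with 6642 bexarotene and 5912 control intervals. These shares are therefore given as a description. The median gap from a member to the bexarotene list was 22083 bp, and 1 member, near Kif13b, abutted a bexarotene peak with a gap of 0 bp. On the other side of the rule, a control peak near Brd2 was left out for an overlap of 4 bp. Members also lay near other control peaks, with 14.9% having one within 1 kb, near the 14.4% of all control intervals and above 8.61% of the shared peaks (difference 6.24, 3.73 to 8.79).

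Of the chromosomes, number 15 had the most members. It held 142 (11.8%, 10.1 to 13.7%), or 1.37 per Mb, with 3.92% of the genome and 8.69% of all control myogenin peaks. Chromosome 10 held 10.5% of the members and 9.66% of all control peaks, and chromosome 11 held 8.05% and 7.98%. On chromosome 15 27.6% (23.9 to 31.6%) of all control peaks were members. The share was 25.8% (20.1 to 32.4%) on chromosome 14, 25.3% on chromosome 18, 25% (15.2 to 38.2%) on chromosome X and 24.7% on chromosome 7, and the lowest was 11.1% (7.48 to 16.0%) on chromosome 9. The shared peaks had 7.37% of their number on chromosome 15, the peaks with p300 6.68% and the peaks unique to bexarotene 7.86%.

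On chromosome 15, singled out after the data were seen, the members had fewer E-boxes. The share was 21.8% (15.8 to 29.3%) there and 36.5% (33.7 to 39.4%) on the other chromosomes, a difference of -14.7 points (-21.4 to -6.66). That interval takes no account of the choice of chromosome, or of members that lie close together. Peaks unique to bexarotene showed the same direction (41.2% against 60.1%, difference -18.9, -26.5 to -10.8), shared peaks had a difference of -4.18 (-14.3 to 4.43) and peaks unique to control with p300 one of 0.706 (-13.2 to 17.3). Fewer members of chromosome 15 had the smallest length (71.8%) than elsewhere (81.1%). On chromosome 9, 15 of the 23 members (65.2%, 44.9 to 81.2%) had an E-box.

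**Figure D5:**
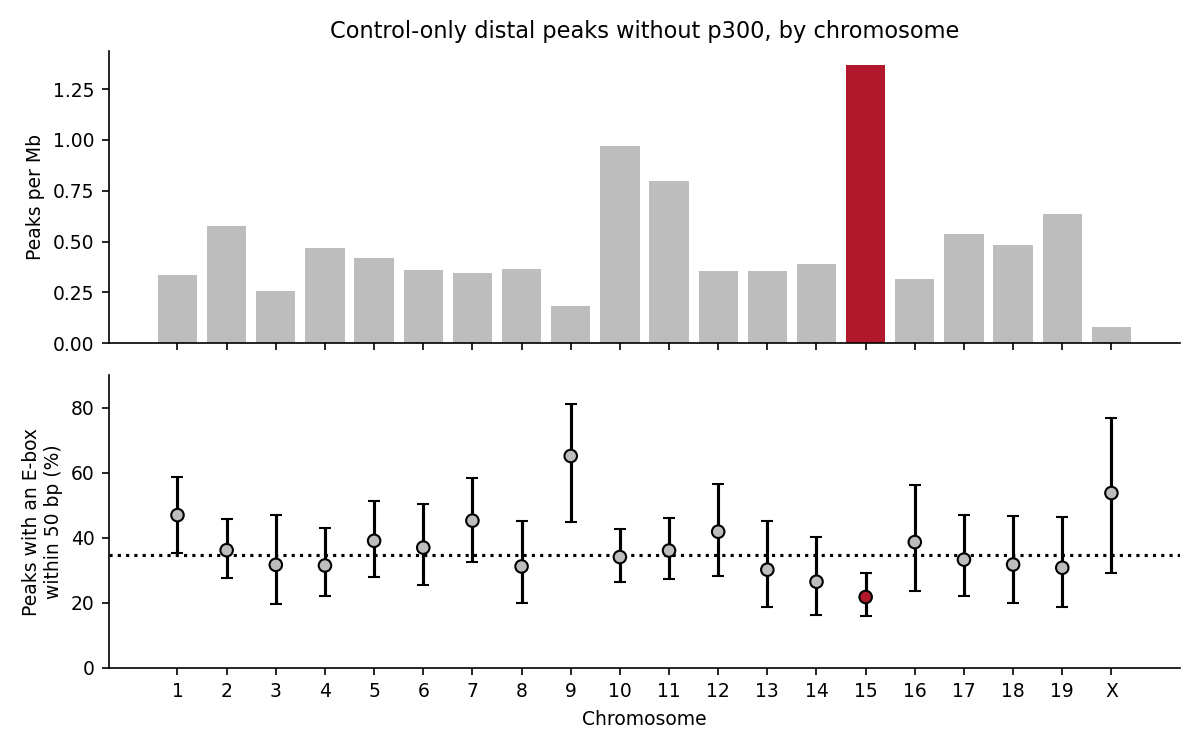
The upper panel gives the members per Mb of each chromosome, and the lower panel the share of members with an E-box within 50 bp (%) with 95% Wilson intervals and the overall 34.8% as a dotted line. Chromosome 15 has the most members per Mb (1.37) and an E-box share of 21.8%.

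Some stretches of the genome held several members. Of the 684 windows of 1 Mb that held a member, 422 held 1 and 33 held 5 or more, and these 33 held 217 members. The same counts are not given for the other sets, so such stretches are not shown to be particular to the members. The densest window, megabase 80 to 81 of chromosome 10, held 20 members among 63 control peaks, 6 of them with an E-box, near genes such as Dot1l, Eef2, Mknk2 and Nfic. The megabase before it held 10 among 57. On chromosome 15, the megabase from 85 to 86 held 9 members among 15 control peaks, with 1 shared and 5 bexarotene-only distal peaks without p300, near Wnt7b and Ppara.

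By nearest TSS the members fell to 1010 of 22378 protein-coding genes, or 4.51%. Of these genes 862 had 1 member, 114 had 2 and 34 had 3 or more. The shared peaks reached 1062 genes, 37 of them with 3 or more peaks. The bexarotene-only peaks reached 1625 genes, 84 of them with 3 or more. Notch1 had 5 members, 3 of them with an E-box. They lay in an exon 18376 bp and in the first intron 1461 bp downstream of the nearest Notch1 TSS, and between genes at 12966, 25045 and 26656 bp upstream. The nearest gene was Notch1 for 1 shared distal peak without p300 and for no bexarotene-only one.

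Wnt7b, which encodes a secreted Wnt ligand, had 5 members from 31445 to 71995 bp upstream, 1 with an E-box. Ppara, the gene of a fatty-acid-sensing nuclear receptor that pairs with RXR, had 4 members from 59107 to 66184 bp upstream, 1 with E-boxes, and was also nearest to 3 bexarotene-only peaks. These 9 members share the stretch chr15:85443610-85507036 between the genes. Nr4a1, an orphan nuclear receptor gene, had 4 members from 12322 to 20002 bp upstream, of which 2 had an E-box, and no peak of the other 3 sets.

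Kcnrg had 5 members from 28810 to 42394 bp downstream of its TSS, none with an E-box even over the whole interval, at a GC content of 23.0 to 50.5%, and no peak of the other 3 sets. Kdm6b, the gene of a histone H3 lysine demethylase, had 4 members, 1 in its first intron and 3 within 1480 to 6124 bp upstream, 1 of them with an E-box. Lrp1 had 4 members within 1168 to 5382 bp of its TSS, none with an E-box within 50 bp. Rps6ka2 and Cdh18 had 4 each and Aif1l, Arhgap5 and Asap1 3 each. Further genes had 3 members and are not listed here, since 34 genes had 3 or more and at most 12 were taken.

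Of 183 annotated genes in 7 lists drawn up for muscle, signaling, adhesion and the cell cycle, 33 (18%) were nearest to a member, beside 4.51% of all protein-coding genes. The same lists had 24.0% nearest to a shared peak and 26.8% nearest to a bexarotene-only peak, beside 4.75% and 7.26% of all genes. For the peaks unique to control with p300 the shares were 9.29% and 2.26%. In the lists below, a share of genes nearest to a member is to be read beside the 4.51%. The 33 genes had 46 members, of which 19 had an E-box.

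Among myogenic regulators 6 of 24 genes (25%) were nearest to a member, Myod1, Mef2d, Tead1, Eya4, Id3 and Runx1, with 12 members in all, beside 8 genes for shared and 9 for bexarotene-only peaks. Myod1 had a further member without an E-box 60492 bp upstream, 928 bp from a bexarotene myogenin peak and 985 bp from p300. Mef2d had a second member 2588 bp upstream, without an E-box, 685 bp from a bexarotene peak and 817 bp from p300. Eya4, a coactivator of homeodomain factors in early myogenesis, had 3 members, and the one with an E-box, 192447 bp upstream, lay 45 bp from a bexarotene peak. Id3, whose protein binds E proteins and keeps them from DNA, had a member in an exon 1443 bp from its TSS, with no E-box within 50 bp and 1 in the whole interval. Runx1 had 3 members, none with an E-box.

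The signaling list had 5 of 30 genes (16.7%), beside 7 for shared and 9 for bexarotene-only peaks. Among them are members of the Notch pathway, namely the receptor gene Notch1, the ligand gene Dll1, with an E-box member 83228 bp downstream, and the target Hes1, a repressor whose member lay in an exon 1581 bp from the TSS without an E-box and 57 bp from p300. The other two are the retinoic acid receptor genes Rarb and Rara, whose products pair with RXR. The Rarb member, in intron 2 and 3210 bp downstream of a TSS inside the gene, had a CAGCTG site. The 307 bp Rara member, in the first intron and 3525 bp downstream, had no E-box and lay 204 bp from a bexarotene myogenin peak.

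The sarcomere list had 4 of 40 genes (10.0%), beside 4.51% of all protein-coding genes, and 9 of 40 were nearest to a shared and 9 to a bexarotene-only peak. The member near Tnnc1, for slow troponin C, lay 1176 bp downstream of its TSS, within the annotated spans of both Tnnc1 and Nisch. It had a CAGCTG site, as did the member 29104 bp upstream of Neb, for the thin-filament protein nebulin. Myoz1 had a member without an E-box 3059 bp upstream, in an exon of Synpo2l, and Actc1 is the fourth gene. Of 25 excitation and calcium genes 1 (4.0%), Kcnj12, the gene of an inward rectifier potassium channel, was nearest to a member, with a CAGCTG site in its first intron, 3048 bp from the nearest TSS. In that list 4 genes were nearest to a shared and 6 to a bexarotene-only peak.

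The cell cycle list had 7 of 16 genes (43.8%), beside 5 for shared peaks, 5 for bexarotene-only peaks and 1 for peaks unique to control with p300. The peaks with p300 were nearest to 5 genes in each of the myogenic regulator, signaling, and matrix and cytoskeleton lists. They were nearest to 1 gene of the fusion and adhesion list and to 0 of the sarcomere and the excitation and calcium lists. The member of Rb1, the retinoblastoma gene, lay in intron 2, 12189 bp downstream, with a CAGCTG site and with a bexarotene peak 247 bp and a p300 peak 245 bp away. Cdkn1a, the p21 inhibitor gene induced at cell cycle exit, had a member in its first intron without an E-box, 291 bp from p300. Ccnd3, for cyclin D3, had a member without an E-box within 50 bp. Myc had 2 members 93115 and 474289 bp downstream, the farther one with an E-box. Members without an E-box also lay 3451 bp downstream of the TSS of Jun and 3708 bp downstream of that of Fosl2, both genes of AP-1 subunits, and Gadd45b completes the count.

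The fusion and adhesion list had 5 of 22 genes (22.7%), beside 7 for shared and 6 for bexarotene-only peaks. Itgb1, the integrin beta 1 gene, had an E-box member 90225 bp upstream, 348 bp from a bexarotene peak, and Ctnnb1, for beta-catenin, one 134741 bp upstream. Itga7, the laminin receptor subunit of muscle, had a member in its first intron and Kirrel one in its first intron, both without an E-box within 50 bp, and Ncam1 is the fifth gene. The matrix and cytoskeleton list had 5 of 26 genes (19.2%) with 7 members, beside 4 for shared and 5 for bexarotene-only peaks. Among them, Lamc1, for the laminin gamma 1 chain, had a CAGGTG site 1519 bp from its TSS in the first intron, and Col5a1 had the 3 sites printed above. Vim, for vimentin, had 2 intronic members and Sparc 1, none with an E-box within 50 bp.

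The members with most E-boxes over the whole interval had between 4 and 9. The members near Tmem38b and Arhgap18 had 6 each, the member in an exon of Hook2 had 5, and those near Klhl21 and Tmem184a had 4 each. A member in the first intron of Rps6ka2 also had 4, so the choice of 6 members cut through a tie. The member with 9 lies on chromosome 18 near a gene known by a clone name only.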

How the data were processed

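Myogenin and p300 ChIP-seq of C2C12 myoblasts gave 4 peak lists, with 1 library per condition. The authors mapped reads to mm9 (myogenin by BWA-MEM, p300 by Bowtie), discarded duplicates using Picard and ran HOMER findPeaks on each library, in factor style and lengthening wide peaks. The deposited lists hold positions only, with no other unit, score or depth. The peak threshold could therefore not be varied. Positions were converted to a count from 1.

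Overlap required 1 bp. Distances ran from the interval center to 45982 TSS positions of protein-coding transcripts in GENCODE for the same genome assembly. Sequences came from that assembly. Members, gene lists and comparisons were chosen with earlier results of these data known. Named were the genes with most members (3 or more, at most 12), list genes with a member (values for at most 30), the 6 longest members and the 6 with most E-boxes. Where genes with most members or members with most E-boxes tied at the last place, the cut fell within the tie. No test between conditions was possible. Shares carry 95% Wilson and differences 95% Newcombe intervals. Functions were tested on simulated data. Python 3.11.15, numpy 2.4.6, pandas 2.3.3, scipy 1.17.1, pysam 0.24.0 and matplotlib 3.10.9 were used. Alternatives changed the overlap rule, the p300 rule, the TSS distance and catalog, the E-box and its window. Input, H3K27me3 and other data were not used here. The members of a further list gene are not reported here.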

Additional observations from a re-analysis of the deposited data

How the results depend on the processing

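With each alternative changed singly, the E-box share of the members stayed below that of the shared and of the bexarotene-only peaks in every setting run. Beyond 5 kb from a TSS there were 766 members at 670 genes, 40.5% with an E-box and 43.7% inside a gene, and the differences were -35.7 points to shared and 5.35 to p300-bearing peaks. Longer than the smallest interval were 241 members at 229 genes, with an E-box share of 38.6%, a difference of -32.6 to bexarotene-only peaks and 15.8% within 1 kb of a bexarotene peak. With no p300 within 1 kb, the E-box share was 38.3%, the difference to p300-bearing peaks 7.65, the share inside genes 55.6% and that near a bexarotene peak 9.17%. The E-box share was 48.8% over the whole interval, 50.6% within 100 bp, 24.6% for CAGCTG alone and 57.0% with any center bases. The difference to shared peaks was -33.6 for the former and -32.5 for the latter. The difference to p300-bearing peaks was -7.16 over the whole interval, -6.60 within 100 bp and -6.34 with any center bases, so it has no stable sign. The cause of these shifts was not tested. Counting genes of every type put 56.3% of the members inside a gene. A bexarotene peak lay within 1 kb of 20.6% under a reciprocal overlap of 50% and of 9.43% when peaks within 200 bp counted as shared, which follows from those rules. A TSS within 50 kb of a member was found for 1913 genes. Leaving out chromosome 15, an alternative chosen after seeing the data, left 1063 members with an E-box share of 36.5%. No paired analysis was possible because each condition has 1 library and no result comes from a test.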
